A study of Homo sapiens with 9 samples.

Results

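The mRNAs of MYC, HMGA1, HMGA2, IGF2BP1, IGF2BP3, IGF2 and IGF2R and the noncoding RNA H19 belong to the oncofetal network that joins the let-7 microRNAs, their antagonist LIN28B and the IGF2BP proteins. These 8 genes, of 62050 in GENCODE release 44 on GRCh38, were chosen by name, and the peaks that overlapped them on their own strand were taken. Of the 2478204 merged peaks of 54 antibody-barcode eCLIP (ABC) libraries, 4053 overlapped 1 of the 8 genes and 4030 were placed in 1 of them, and 20130 genes held a placed peak in at least 1 library. ABC crosslinks proteins to RNA with UV light in living cells, ligates a DNA barcode from the antibody to the bound RNA fragment and so reads out several RNA-binding proteins (RBPs) from 1 tube.

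All cells were UV-crosslinked, and no other treatment is given in the labels. In the 10plex experiments, 10 antibodies (DDX3, EIF3G, FAM120A, IGF2BP2, LIN28B, PRPF8, PUM2, RBFOX2, SF3B4 and ZC3H11A) were applied to the same lysate, in 3 replicates of K562, a leukaemia line with erythroid features, and in 2 replicates of HEK293T, a line derived from embryonic kidney. Each replicate is therefore 1 pool of 10 libraries, which gave 50 libraries. A further 4 singleplex libraries held SLBP in K562 and RBFOX2 in HEK293T, with 2 replicates each. Groups were taken from the sample titles, because the cell-line fields of the multiplexed HEK293T samples read K562 and the third K562 sample is entered as K563. Nothing in the labels says whether replicates came from separate cultures, so replicates may be technical. The permutation p-values compare RBPs within pools, and the limma p-values between lines rest on the spread between libraries.

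The let-7 microRNAs are a family of small RNAs that share 1 seed and repress mRNAs through matching sites in their 3′ UTRs. LIN28B blocks the maturation of let-7 precursors and also binds mRNAs, often in coding sequence, where GGAG is a known part of its preferred sites. The IGF2BP proteins are oncofetal RBPs that stabilize their target mRNAs and favour CA-rich sequence. HMGA2, IGF2BP1 and IGF2BP3 are classical let-7 targets, IGF2 is the growth factor after which the IGF2BP proteins are named, IGF2R is the receptor that clears it, and H19 is the imprinted noncoding RNA next to IGF2.

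The seed explains which sites were searched for. The 8 let-7 sequences, taken from RefSeq (GRCh38.p14), all carry the same bases 2 to 8, which are in capitals in these 4 examples.
hsa-let-7a-5p: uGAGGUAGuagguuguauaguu
hsa-let-7d-5p: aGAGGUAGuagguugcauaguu
hsa-let-7g-5p: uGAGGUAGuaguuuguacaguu
hsa-let-7i-5p: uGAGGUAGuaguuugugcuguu

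The 7 bases CTACCTC pair with this seed. They were found 11 times in the 3′ UTRs of the members, on the transcript strand: 4 times in HMGA2, 4 times in IGF2BP1 and once each in HMGA1, IGF2BP3 and IGF2R. MYC, IGF2 and H19 held none in the 3′ UTR or, for H19, in any exon. Of 19365 3′ UTRs of coding genes, 9.58% held at least 1, and 12 held 4 or more. The 6 sites within 25 nt of an IGF2BP2 or LIN28B peak in any 10plex library are shown with the pairing bases in capitals (GRCh38).
HMGA1, chr6:34245832-34245861, plus strand: tctgttcacaaaCTACCTCtggacagttgt
HMGA2, chr12:65963301-65963330, plus strand: aacgttcgatttCTACCTCagcagcagttg
HMGA2, chr12:65964536-65964565, plus strand: cactactcaataCTACCTCtgaatgttaca
HMGA2, chr12:65965801-65965830, plus strand: caaaacacactaCTACCTCttaagtcccag
IGF2BP1, chr17:49055000-49055029, plus strand: cttttgttttatCTACCTCttagcaaaaca
IGF2BP3, chr7:23311785-23311814, minus strand: atttttactcaaCTACCTCaggtattcagt

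The 30-base windows at the centre of the highest peak in the leading IGF2BP2 sites of HMGA1 and HMGA2 are shown because these sites carry most IGF2BP2 reads. CA is in capitals. The HMGA1 window held 3, and as many or more were found in 49.0% of 23453 windows at the centres of enriched exonic IGF2BP2 peaks in K562. The HMGA2 window held 8, and as many or more were found in 1.73% of 32121 such windows in HEK293T.
IGF2BP2 in HMGA1, chr6:34245888-34245917, plus strand: ttcgaCAtccgtCAttgctgctgctacCAg
IGF2BP2 in HMGA2, chr12:65964843-65964872, plus strand: tttcctCAatCACActaCACAtCACACAag

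For LIN28B, the windows come from the H19, IGF2R and HMGA2 sites with most reads. Each was placed around the first GGAG of its site, in capitals, so that its presence in the window is by construction, or at the centre of the highest peak where the site held none, as in the leading IGF2R site. A GGAG was found in 48.2% to 62.9% of stretches as long as these sites, taken at the centres of enriched exonic LIN28B peaks of the same line. The first H19 window crosses the junction of exons 1 and 2 of the spliced RNA (chr11:1996415-1996540), with 23 bases before the junction.
LIN28B in H19, exons 1 and 2, minus strand: cagcgttcgggctGGAGacgaggccaggtc
LIN28B in H19, exon 2, chr11:1996292-1996321, minus strand: cggcgaggacagaGGAGgcgcgtccggcct
LIN28B in IGF2R, chr6:160027235-160027264, plus strand: gccgcctgcctggtaagaggacaccaggcg
LIN28B in IGF2R, chr6:160040635-160040664, plus strand: acgcctgtgttaaGGAGaaggaagacctcc
LIN28B in HMGA2, chr12:65965917-65965946, plus strand: ttttgtgGGAGataaattttataggactgt

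A level is given as PRPM, the peak reads of a gene region divided by the sum of reads over all peaks of that library and multiplied by 1000000, with the 5′ UTR, CDS, 3′ UTR and introns apart. The 10plex libraries held 938 to 206869 merged peaks and 13351 to 3092853 summed peak reads. A peak needed at least 3 reads, so that 3 reads were worth 2.68 to 15.9 PRPM in IGF2BP2 libraries, 11.1 to 20.5 in LIN28B libraries and 75.1 to 225 in PUM2 libraries, and a PRPM of 0 means that no peak was listed, not that no read was there. Of 14 erythroid markers, 14 had exonic peaks in K562 and 2 in HEK293T. Of 10 neural and kidney markers, none had them in K562 and 8 in HEK293T, so that on these lists the cells matched the titles. Of 6 markers of other cells, 3 had exonic peaks in K562, at up to 219 summed PRPM, and 1 in HEK293T, at 9.78. In bulk lysate, fewer cells holding an RNA and fewer copies per cell cannot be told apart, and no RNA level was measured in these files.

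IGF2BP2 and LIN28B were each compared with the other 9 RBPs of the same pool, by an exact two-sided permutation of the RBP labels within the 5 pools, on log2(PRPM + 10), with Benjamini-Hochberg adjustment over 34282 gene regions. Differences below are on this scale, RBP minus the mean of the other 9, and this scale understates changes of low values. The 8 genes gave 26 tested regions.

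IGF2BP2 was higher on 2 of the 26 regions at an adjusted p below 0.05, where 7.03% of all regions were called. Both were 3′ UTRs, those of HMGA1 and MYC. They were 2 of 7 tested member 3′ UTRs, and 21.2% of all 3′ UTRs were called, so that this share is near the background. None of the 6 member CDS was called for IGF2BP2 (the exact permutation test gave 0 also at an unadjusted p below 0.05), against 6.76% of all CDS. The median difference of the 7 3′ UTRs was 1.36, against 0.56 over all 3′ UTRs tested, and 6 of the 7 were above 0. LIN28B was higher on 3 of the 26 regions, against 5.31% of all regions. These were the exons of H19, a stretch counted as H19 intron, and the IGF2R CDS. The H19 stretch and exons adjoin at a splice junction with close LIN28B reads on both sides, so that their calls are not read as independent.

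**Figure D1:**
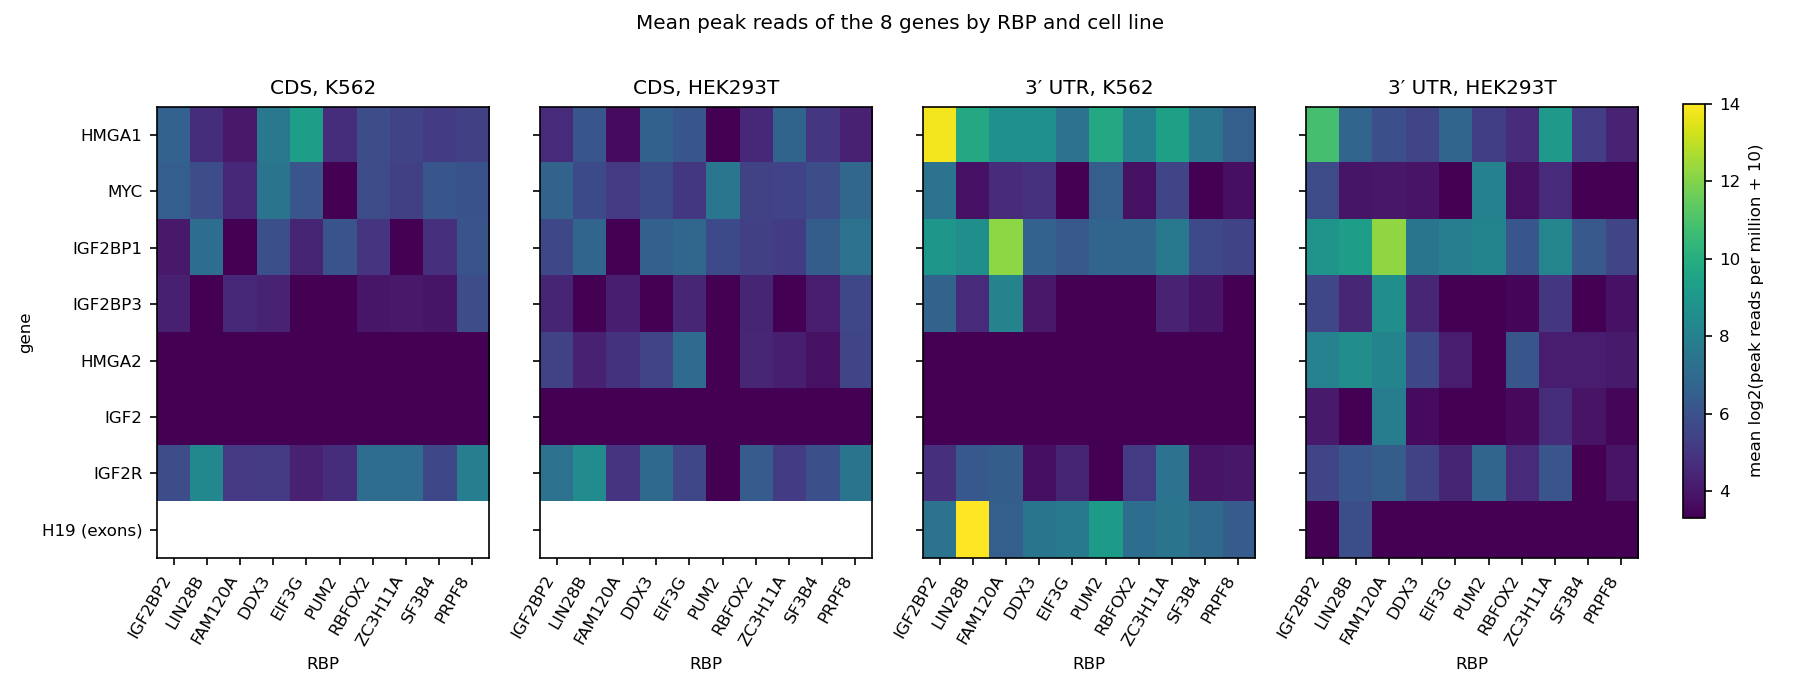
Mean of log2(PRPM + 10) over replicates (3 for K562, 2 for HEK293T) for the 8 genes (rows) and the 10 RBPs (columns), in the CDS and the 3′ UTR; the H19 row in the 3′ UTR panels holds its exons. The brightest cells are IGF2BP2 on HMGA1 and LIN28B on H19 in K562 and FAM120A on IGF2BP1 in both lines, and HMGA2 and IGF2 are dark in K562.

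HMGA1 encodes an architectural chromatin protein that is high in embryos and tumours. In K562, its 3′ UTR held 13104, 18178 and 12474 PRPM of IGF2BP2 in replicates 1, 2 and 3, a mean of 14585 ± 3127 (SD, n = 3), or 1.46% of all IGF2BP2 peak reads. With touching peaks counted once, it held 11445, 13970 and 11388 PRPM in K562. In HEK293T it held 1953 and 1679 PRPM (mean 1816 ± 194, n = 2). It ranked first of all 3′ UTRs with IGF2BP2 peaks in each K562 replicate and at rank 4 in each HEK293T replicate. The other 9 RBPs held 0 to 1120 PRPM in K562 and 0 to 1732 in HEK293T.

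In each K562 replicate IGF2BP2 lay above every other RBP on HMGA1 without overlap. In HEK293T replicate 2, ZC3H11A at 1732 PRPM was above IGF2BP2 at 1679, and the groups overlapped there. The difference was 5.18, a ratio of 36.3 on this scale, with IGF2BP2 above the mean of the others in 5 of 5 replicates (exact permutation test, p = 2e-05, adjusted p = 0.00142). LIN28B, at 655, 871 and 1106 PRPM in K562 and 144 and 70.3 in HEK293T, differed from the others by 0.69 (adjusted p = 0.904, exact permutation test). The HMGA1 CDS was led by EIF3G, a translation initiation factor, at 532, 474 and 968 PRPM in K562. In HEK293T, LIN28B led this CDS in replicate 1 at 511 PRPM, with EIF3G next at 134, and had no peak there in replicate 2, where ZC3H11A led at 85.6.

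**Figure D2:**
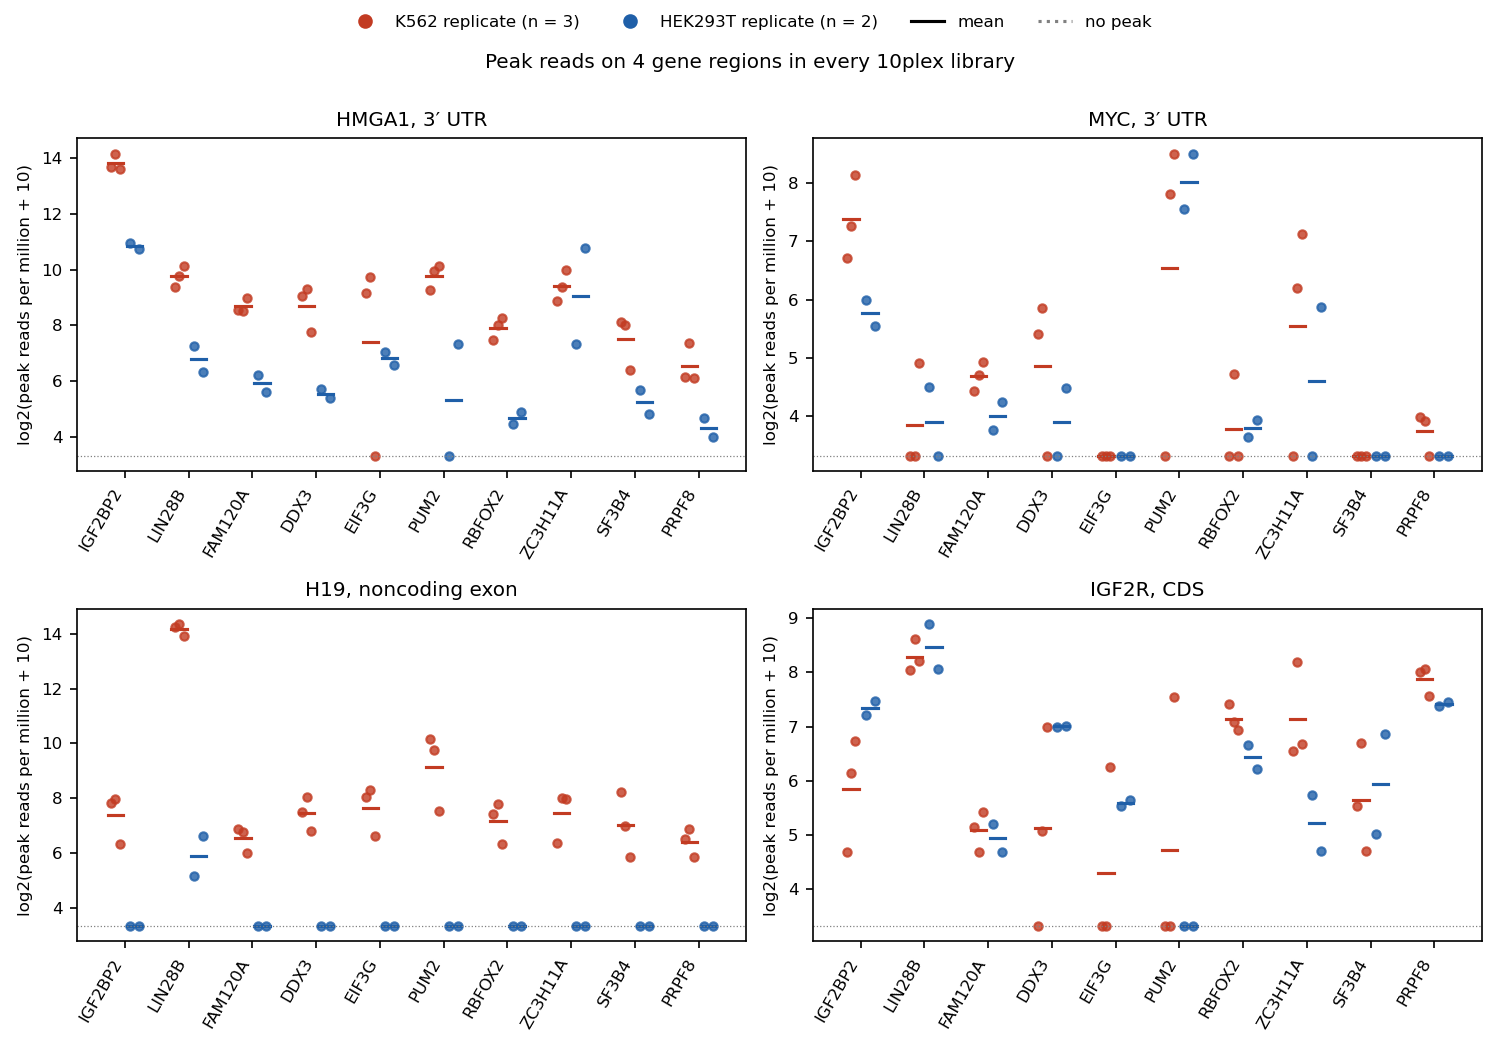
log2(PRPM + 10) of every 10plex library for 4 gene regions (HMGA1 3′ UTR, MYC 3′ UTR, H19 exons, IGF2R CDS), by RBP, with K562 replicates in red, HEK293T replicates in blue, short lines for their means and a dotted line where no peak was listed. IGF2BP2 stands above the other RBPs on HMGA1 in K562 and LIN28B on H19 in K562. PUM2 lies at or above IGF2BP2 on MYC in 4 of 5 replicates, from 4 to 14 PUM2 reads.

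Along the 1347-nt HMGA1 3′ UTR, IGF2BP2 had 9 sites, counted after merging overlapping or touching peaks of the 5 replicates, and 6 of them were found in all 5. Reads of a site count touching peaks of a library once, so that they can be below the reads behind a PRPM. The site with most reads, 862 to 1055 nt after the stop codon (chr6:34245746-34245939, plus strand), held 582, 1388 and 1698 reads in K562 and 500 and 674 in HEK293T. The second, 96 to 208 nt after the stop codon (chr6:34244980-34245092), held 386, 595 and 994 reads in K562 and 126 and 240 in HEK293T. The leading site covers the single let-7 site of this 3′ UTR, which starts 960 nt after the stop codon, in 3 of 3 K562 and 2 of 2 HEK293T replicates.

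LIN28B had its main HMGA1 site elsewhere, 659 to 809 nt after the stop codon, with 46, 156 and 58 reads in K562 and 10 and 14 in HEK293T. Its nearest peak was 67 nt from the let-7 site in K562 and 132 nt in HEK293T. FAM120A, an RBP with many 3′ UTR sites here, had its highest summed site with 56, 121 and 63 reads in K562 and 37 and 48 in HEK293T at 90 to 208 nt, which overlaps the second IGF2BP2 site. In the third K562 replicate, for which the deposited fold over the other 9 barcodes of the pool was used as given, 15 of 15 IGF2BP2 peaks in this 3′ UTR passed P below 0.001 and more than 8-fold, with log2 folds of 3.24 to 5.57, and 0 of 7 LIN28B and 0 of 8 FAM120A peaks did.

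**Figure D3:**
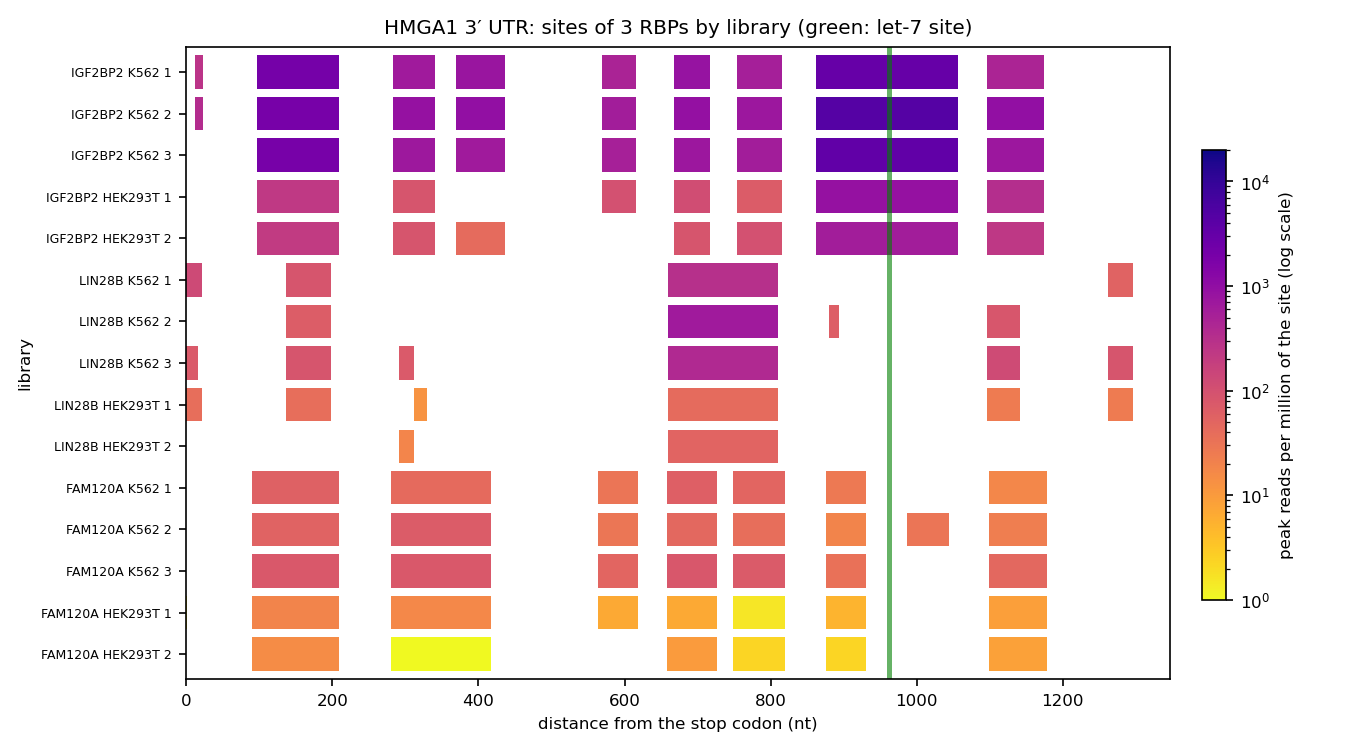
Sites of IGF2BP2, LIN28B and FAM120A along the HMGA1 3′ UTR (distance from the stop codon in nt), 1 row per library, coloured by PRPM on a log scale; sites are merged over replicates and drawn where a library has reads there, and the green band is the let-7 site. The darkest IGF2BP2 site covers the band in all 5 libraries, and the main LIN28B site lies before it.

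MYC encodes a growth-promoting transcription factor whose mRNA is a known IGF2BP target. Its 3′ UTR held 95.5, 145 and 272 PRPM of IGF2BP2 in K562 and 54.2 and 36.6 in HEK293T. The difference from the other RBPs was 2.39 (exact permutation test, p = 0.00289, adjusted p = 0.0441), with IGF2BP2 above their mean in 5 of 5 replicates but highest of the 10 in 1 of 5. PUM2, which recognizes short motifs in 3′ UTRs, held 0, 215 and 354 PRPM in K562 and 179 and 350 in HEK293T, and its levels overlapped those of IGF2BP2 in K562. These PUM2 levels rest on 4 and 6 reads in K562 replicates 2 and 3 and on 4 and 14 in HEK293T. The IGF2BP2 call was lost in 9 of 19 other settings, among them leaving out K562 replicate 1, 2 or 3 or HEK293T replicate 1 (adjusted p = 0.0891 to 0.143, exact permutation test).

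All IGF2BP2 peaks of the MYC 3′ UTR fell in 1 site, 37 to 347 nt after the stop codon, with 18, 43 and 101 reads in K562 and 30 and 41 in HEK293T. LIN28B had 3 reads in each of 2 libraries there. On the MYC CDS, IGF2BP2 held 47.8, 97.5 and 108 PRPM in K562 and 81.3 and 114 in HEK293T, a difference of 0.88 (adjusted p = 0.599, exact permutation test), and LIN28B one of -0.01. The 5′ UTR was led by EIF3G and the helicase DDX3, which acts on structured leaders: EIF3G held 157, 344 and 704 PRPM in K562 and 340 and 374 in HEK293T.

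IGF2BP1 and IGF2BP3 encode paralogs of the RBP under study, and IGF2BP1 carried let-7 sites 1632, 4269, 4923 and 5568 nt after the stop codon of a 6701-nt 3′ UTR. FAM120A led this 3′ UTR in every replicate, at 3650, 4715 and 5741 PRPM in K562 and 4310 and 5209 in HEK293T, and it ranked 4 to 9 among all 3′ UTRs with FAM120A peaks. IGF2BP2 held 382, 525 and 610 PRPM in K562 and 553 and 377 in HEK293T. LIN28B held 314, 391 and 468 PRPM in K562 and 744 and 481 in HEK293T.

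Both lay above the mean of the other RBPs on the IGF2BP1 3′ UTR in 5 of 5 replicates, yet neither passed: the difference was 1.36 for IGF2BP2 (adjusted p = 0.618) and 1.29 for LIN28B (adjusted p = 0.826, exact permutation tests), with FAM120A among the RBPs they were compared with. IGF2BP2, LIN28B and FAM120A shared the same start of this 3′ UTR: the leading FAM120A site ran from 46 to 369 nt after the stop codon, the leading LIN28B site from 66 to 198 nt and the leading IGF2BP2 site from 151 to 293 nt. Of 34 IGF2BP2 sites, 5 were in all 5 replicates, as were 3 of 28 LIN28B sites. On the IGF2BP1 CDS, LIN28B held 130, 168 and 109 PRPM in K562 and 93.0 and 111 in HEK293T, a difference of 1.82 (adjusted p = 0.0968, exact permutation test), which passed in 3 of 19 other settings.

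The IGF2BP3 3′ UTR was again led by FAM120A, at 251, 265 and 276 PRPM in K562 and 346 and 416 in HEK293T. IGF2BP2 held 101, 108 and 77.8 PRPM in K562 and 70.5 and 18.8 in HEK293T, a difference of 1.93 that did not pass (adjusted p = 0.153, exact permutation test). LIN28B held 0, 42.1 and 20.4 PRPM in K562 and 38.0 and 0 in HEK293T, and had no peak on the IGF2BP3 CDS in any 10plex library. The introns were led in HEK293T by RBFOX2, a splicing factor, at 207 and 155 PRPM, and the 2 RBFOX2 singleplex libraries held 316 and 270 there. In K562 the leader differed between replicates, with PRPF8 in replicate 1 at 126 PRPM, RBFOX2 in replicate 2 at 197 and the splicing factor SF3B4 in replicate 3 at 129.

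HMGA2 encodes a chromatin protein that is the classical let-7 target. None of the 30 K562 10plex libraries had an HMGA2 peak, and 18 of the 20 HEK293T libraries did. Its 3′ UTR held 524 and 278 PRPM of LIN28B, 371 and 198 of FAM120A and 347 and 185 of IGF2BP2 in HEK293T, and LIN28B was the highest of the 10 RBPs in both replicates. With touching peaks counted once, LIN28B held 442 and 339 PRPM and FAM120A 440 and 241, nearly equal in replicate 1. The difference over all 5 pools was 1.32 for LIN28B (p = 0.01, adjusted p = 0.136) and 1.06 for IGF2BP2 (adjusted p = 0.428) in the exact permutation test. With peaks in 2 pools only, 0.01 is the smallest p that this test can give, so that this test could not call it after adjustment. Within HEK293T, the difference was 3.29 for LIN28B and 2.66 for IGF2BP2.

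The 2 LIN28B sites found in both HEK293T replicates lay side by side near the end of the 2999-nt 3′ UTR, at 2560 to 2613 and 2625 to 2700 nt after the stop codon, with 22 and 29 reads and 44 and 37 reads. The first began 33 nt after the last let-7 site, which starts at 2521 nt. An IGF2BP2 site at 2500 to 2603 nt, with 28 and 16 reads, covered this let-7 site in both replicates. The leading IGF2BP2 site, at 1542 to 1593 nt with 41 and 28 reads, holds the CA-rich window that was printed for HMGA2. A FAM120A site at 1529 to 1620 nt, with 240 and 74 reads, covered it. The FAM120A site held 124 and 23.9 PRPM, against 74.1 and 25.0 for IGF2BP2. DDX3, PRPF8 and RBFOX2 also had peaks there in both replicates, so that the site is not particular to IGF2BP2. The leading FAM120A site lay at 143 to 239 nt, with 241 and 294 reads.

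**Figure D4:**
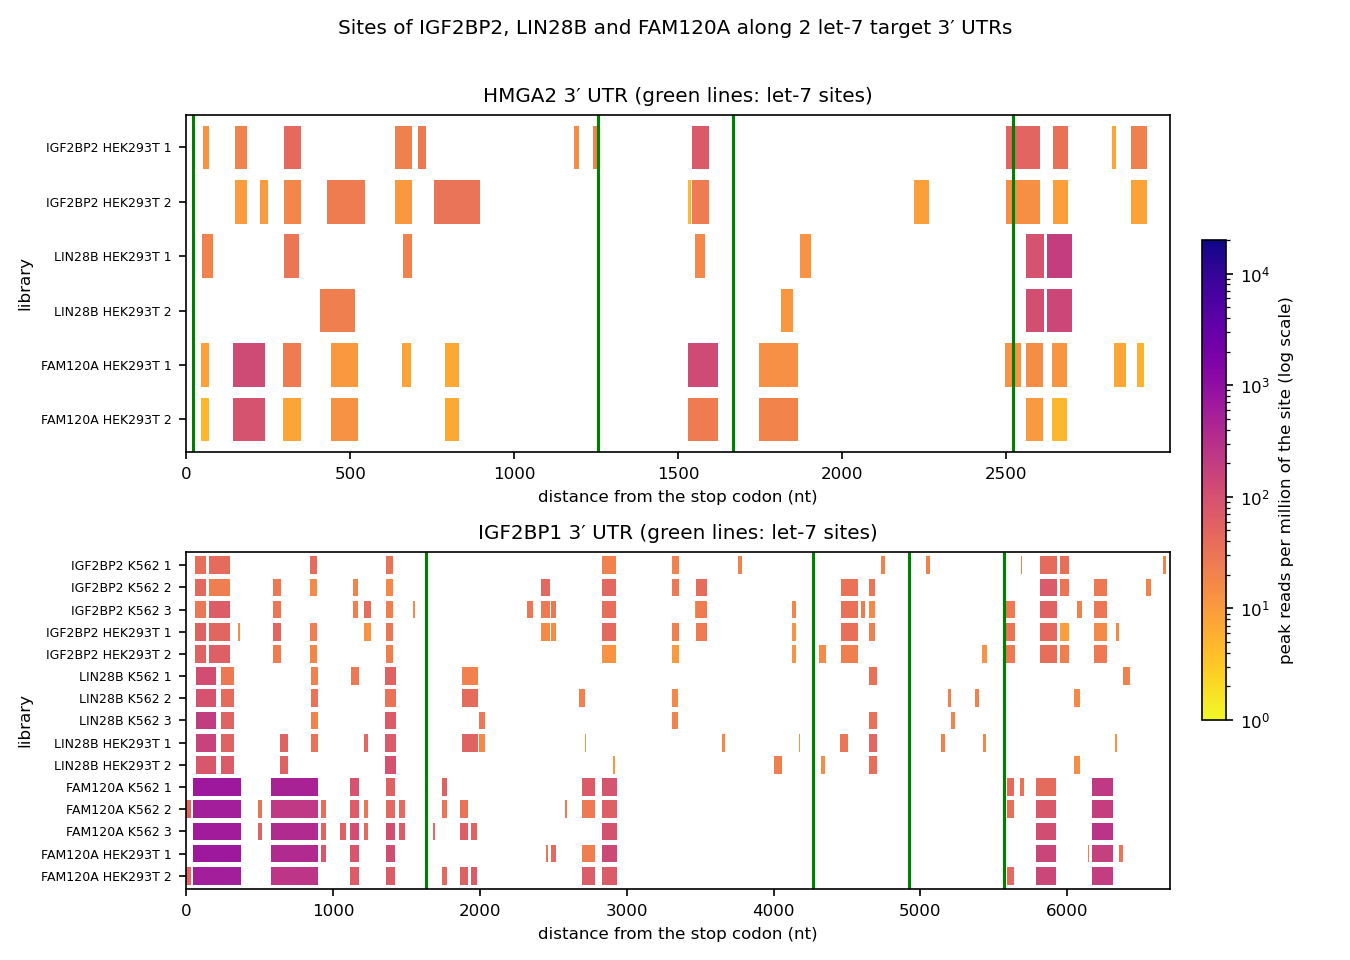
Sites of IGF2BP2, LIN28B and FAM120A along the 3′ UTRs of HMGA2 (HEK293T libraries) and IGF2BP1 (all libraries), by distance from the stop codon in nt, coloured by PRPM on a log scale, with let-7 sites as green lines. On HMGA2 the 2 LIN28B sites found in both replicates lie after the last let-7 site and the 7 found in 1 replicate lie before it, and on IGF2BP1 the 2 strongest FAM120A sites lie within the first 895 nt, away from the let-7 sites.

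Over the 11 let-7 sites of the member 3′ UTRs, IGF2BP2 peaks covered 1 in K562 (HMGA1) and 3 in HEK293T (HMGA1 and 2 of HMGA2), of which 1 and 2 were covered in all replicates of the line. LIN28B peaks covered 1 in K562, the IGF2BP3 site, with 3 reads in replicate 2, and 0 in HEK293T. Within 50 nt of a peak, the counts in K562 and HEK293T were 3 and 7 for IGF2BP2, 1 and 2 for LIN28B, and 4 and 6 for FAM120A. These counts depend on how long each 3′ UTR is and how many peaks it holds, and no expectation was computed for them.

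H19 gave the largest LIN28B level of the 8 genes. Its exons held 19479, 21093 and 15461 PRPM of LIN28B in K562 (mean 18677 ± 2900, SD, n = 3), or 1.87% of all LIN28B peak reads, and were at rank 3 of all genes with LIN28B peaks in noncoding exons in each replicate. With touching peaks counted once, they held 11008, 12196 and 7643 PRPM in K562. Peaks that face each other across a splice junction do not touch, so that both sides are still counted in all these levels. In HEK293T they held 25.4 and 88.8 PRPM. The other 9 RBPs held 48.4 to 1124 PRPM in K562, where PUM2 held 1124, 859 and 177 and LIN28B did not overlap with any of them. In HEK293T only LIN28B had a listed peak, from 6 and 24 reads, so that it was the highest listed in 5 of 5 replicates. In HEK293T replicate 1, however, 3 reads were worth 134 PRPM for PUM2 and 36.4 for EIF3G, above the 25.4 of LIN28B. Missing peaks of these 2 RBPs therefore do not show that LIN28B was higher there.

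The difference was 5.12 (exact permutation test, p = 1e-05, the smallest that 100000 permutations can give, adjusted p = 0.00071), where 3.3% of all noncoding exon regions were called for LIN28B. The stretch counted as H19 intron differed by 4.43 (p = 1e-05, adjusted p = 0.00071, exact permutation test). It is the first exon of the shorter 5-exon H19 transcript, and placing H19 on that transcript kept the call. IGF2BP2 held 218, 242 and 69.6 PRPM on the exons in K562, a difference of -0.56 (adjusted p = 0.994, exact permutation test).

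On the 5-exon transcript, the 4 LIN28B sites lay at both sides of the junctions of exons 1 and 2 and of exons 2 and 3. The end of exon 1 (chr11:1996518-1996556, minus strand) held 501, 660 and 389 reads in K562, and the start of exon 2 (chr11:1996375-1996422) held 464, 661 and 393. The end of exon 2 (chr11:1996287-1996321) held 398, 845 and 261 reads, and the start of exon 3 (chr11:1996164-1996192) held 396, 838 and 262. The numbers on both sides of a junction are close in every replicate. The other 9 RBPs also had peaks at these 4 sites in K562, at lower levels, so that the positions are not particular to LIN28B. In K562 replicate 1, FAM120A held 28 and 28 reads across the first junction and 22 and 22 across the second. Whether the same spliced reads were counted on both sides was not tested. No library had a peak on the MIR675 hairpin (chr11:1996759-1996831), the microRNA that H19 exon 1 contains. In K562 replicate 3, 8 of 8 LIN28B peaks in H19 exons passed the threshold over the other barcodes, with log2 folds of 6.07 to 6.82, while 0 of 4 IGF2BP2 peaks did.

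**Figure D5:**
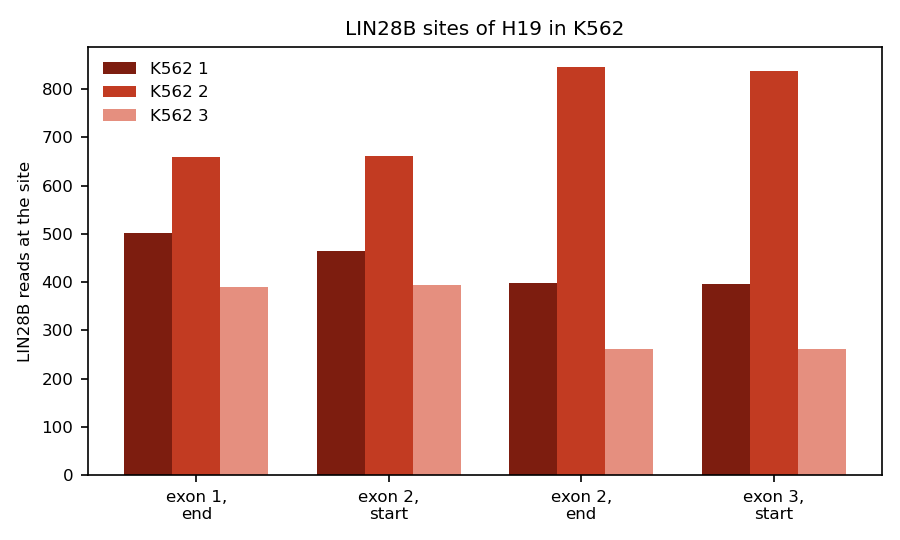
LIN28B reads at the 4 H19 sites in the 3 K562 replicates, in transcript order along the 5-exon transcript. The sites that face each other across a junction hold nearly equal reads in each replicate.

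IGF2R encodes the receptor that takes IGF2 to the lysosome, and was the only member whose CDS was called for LIN28B, 1 of 6 against 11.7% of all CDS. LIN28B held 252, 383 and 285 PRPM in K562 and 465 and 255 in HEK293T, the highest of the 10 RBPs in 5 of 5 replicates, though in K562 replicate 1 PRPF8, a spliceosome core protein, followed at 248 PRPM. The difference was 2.47 (exact permutation test, p = 0.00036, adjusted p = 0.0108). In the same test it did not pass with a pseudocount of 1 (adjusted p = 0.154), without HEK293T replicate 1 (adjusted p = 0.0665) or within either line alone.

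Of 43 LIN28B sites along the 7476-nt IGF2R CDS, 2 were in all 5 replicates, at chr6:160027191-160027308 with 9, 22 and 7 reads in K562 and 15 and 15 in HEK293T, and at chr6:160040602-160040708 with 6, 5 and 6 and 13 and 8. In K562 replicate 3, 5 of 10 LIN28B peaks of this CDS passed the threshold over the other barcodes. None of 7 member 3′ UTRs was called for LIN28B, against 6.33% of all 3′ UTRs (the exact permutation test gave 1 at an unadjusted p below 0.05, HMGA2). On the IGF2R 3′ UTR, LIN28B held 102, 63.1 and 47.5 PRPM in K562 and 93.0 and 40.7 in HEK293T, a difference of 1.29 (adjusted p = 0.457).

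IGF2 itself had no peak in the 30 K562 10plex libraries and peaks in 10 of 20 HEK293T libraries. Its 3′ UTR was led by FAM120A, at 198 and 245 PRPM, with the leading site 2066 to 2126 nt after the stop codon. IGF2BP2, which is named after this mRNA, held 5.42 and 8.93 PRPM, from 3 and 10 reads, and LIN28B had no peak on it. The IGF2BP2 difference was -0.01 (adjusted p = 1, exact permutation test). The single FAM120A site with most reads is shown for this reason, and the leading FAM120A window of IGF2BP1 beside it.
FAM120A in IGF2, chr11:2130885-2130914, minus strand: cccccccaccggagcacacctagggatcat
FAM120A in IGF2BP1, chr17:49049512-49049541, plus strand: gcaggcctgagaatgagtgggaatccggga

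The lines were compared by limma, as the difference in K562 minus that in HEK293T with the pool as a block. For IGF2BP2, 3 of the 26 member regions passed an adjusted p of 0.05, against 7.07% of all regions, and for LIN28B 5 of 26, against 5.72%. Of these, 2 for IGF2BP2 and 3 for LIN28B were regions of HMGA2 or IGF2, which had no K562 peak and passed the filter through HEK293T alone, so that nothing was read from them. Among the 21 member regions with a peak of any of the 10 RBPs in both lines, 1 passed for IGF2BP2, the HMGA1 5′ UTR, against 5.07% of all such regions. For LIN28B 2 passed, the H19 exons and the stretch counted as H19 intron, against 4.12%. These H19 regions adjoin at a splice junction and are not read as independent.

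The HMGA1 3′ UTR did not pass: IGF2BP2 was above the other RBPs by 5.40 in K562 and by 4.86 in HEK293T, a difference of 0.54 ± 1.15 (SE, limma adjusted p = 0.917), although IGF2BP2 itself held fewer PRPM there in HEK293T. H19 exons did with the pseudocount of 10: LIN28B was above the others by 6.82 in K562 and 2.56 in HEK293T, a difference of 4.25 ± 0.51 (SE, limma adjusted p = 6.03e-07). With a pseudocount of 1 it was 1.32 (limma adjusted p = 0.264) and did not pass. The HEK293T side rests on LIN28B at 25.4 and 88.8 PRPM, with the other 9 RBPs at 0.

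On the HMGA2 3′ UTR all K562 libraries were at 0, so that a contrast between the lines only restates the HEK293T differences already given. The H19 contrast moves with the level of H19 peaks of all RBPs in a line, and the part of RNA level in it was not tested. On the IGF2R CDS, LIN28B was above the others by 2.41 in K562 and 2.56 in HEK293T, a difference of -0.15 ± 0.93 (SE, limma adjusted p = 0.972).

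Other genes of the same pathways were read from 4 lists chosen with results of these data known. Of 30 let-7 and oncofetal genes, 21 had a tested 3′ UTR and 8 of these were called for IGF2BP2, against 21.2% of all 3′ UTRs, with a median difference of 1.78 against 0.56 over all 3′ UTRs. They included CCND2 (difference 3.88, 382, 763 and 641 PRPM in K562 and 405 and 213 in HEK293T) and CDK6 (3.40), which drive the cell cycle, and the mRNA of LIN28B itself (2.87, 138, 128 and 123 PRPM in K562 and 83.1 and 75.0 in HEK293T). For LIN28B, 5 of 21 tested CDS of this list were called, against 11.7% of all CDS, with a median of 0.08 against 0.03. Among them were NRAS (3.02), a small GTPase and let-7 target, ARID3B (2.57) and CDC34 (2.55).

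Of 23 genes of IGF and insulin signalling, 3 of 20 tested 3′ UTRs were called for IGF2BP2 (MTOR 2.02, GRB10 1.75 and IGF1R 1.53), a smaller share than the 21.2% of all 3′ UTRs. For LIN28B 4 of 21 CDS were called, against 11.7% of all CDS, and nothing was read from either count for this list. IGF1R, the receptor that IGF2 signals through, was called for both, with 68.2, 42.1 and 27.1 PRPM of LIN28B on its CDS in K562 and 389 and 381 in HEK293T. For LIN28B, AKT2 (2.89) also passed on the CDS and RHEB (3.08) on the 3′ UTR. None of the 21 tested CDS of this list was called for IGF2BP2, against 6.76% of all CDS, and nothing was read from this count.

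Of 23 mRNAs known to bind IGF2BP proteins, 9 of 18 tested 3′ UTRs were called for IGF2BP2, MYC among them, against 21.2% of all 3′ UTRs, with a median of 1.93 against 0.56. LDHA, a glycolytic enzyme, led (4.28, 2070, 2740 and 3549 PRPM in K562 and 1052 and 446 in HEK293T), and PABPC1, the poly(A)-binding protein, passed on the 3′ UTR (3.82) and the CDS (4.23). Of 20 cell-cycle and translation mRNAs known to bind LIN28 proteins, 7 of 18 tested CDS were called for LIN28B, against 11.7% of all CDS, with a median of 1.71 against 0.03 over all CDS. The ribosomal protein mRNAs RPS13 (5.07) and RPS19 (4.43) led, and HMGA1, also on this list, was called for IGF2BP2 and not for LIN28B. IGF2BP2 was called on as many 3′ UTRs of this list, 7 of 16 against 21.2% of all 3′ UTRs, with a median of 1.11, among them EEF2 (3.56), an elongation factor, and HNRNPF (3.52).

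The genes whose exonic PRPM most resembled each member over the 50 10plex libraries were LDHA for HMGA1 (Pearson r = 0.879), SCD for IGF2BP1 (r = 0.895), XPR1 for IGF2BP3 (r = 0.904), RPL38 for MYC (r = 0.829), HERC2 for IGF2R (r = 0.722), ASIC1 for HMGA2 (r = 0.957), GPX8 for IGF2 (r = 0.893) and HBG1, a fetal globin of erythroid cells, for H19 (r = 0.816). These libraries share pools, lines and RBPs, and the correlations are descriptions only. Of the exonic member peaks of IGF2BP2, 41.1% of 192 in K562 and 55.7% of 203 in HEK293T overlapped a peak in every other replicate of the line by at least 1 base, and of those of LIN28B 46.9% of 143 and 39.2% of 125 did. In the singleplex libraries, SLBP held 12 and 2 member peaks and RBFOX2 417 and 270.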

How the data were processed

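ABC libraries of 10 RBPs (10plex) and of SLBP or RBFOX2 (singleplex) were analysed from deposited peaks. Per the study's methods, the authors trimmed reads (cutadapt 2.8), removed repeats, aligned uniquely to GRCh38 (STAR 2.7.6 per the labels), removed duplicates and called peaks per replicate with CLIPper. For every library the deposited lists give CLIPper peaks with their p-value, and merged peaks with a −log10 P and a log2 fold over an external background, which the methods describe as RNA-seq. For 10plex pools the authors also deposited values against the other 9 barcodes, and some lists hold a whole-number display score that was not used. These values against the other barcodes were used only for K562 replicate 3, where they are given as −log10 P and log2 fold.

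Reads of each peak were taken from its name (22 of 54 libraries) and otherwise recovered from the deposited P and fold. Where both existed, in 20 K562 10plex and 2 RBFOX2 singleplex libraries, 96.8% to 99.5% were equal. No HEK293T 10plex library had such names, so recovery could not be checked there in this way. The recovered reads matched the deposited −log10 P, to within a relative difference of 0.01, for at least 99.9% of peaks in each K562 10plex library and for as few as 88.1% in a HEK293T one. Peaks that touch each other were each counted, with counting once as an alternative. Peaks were placed by most bases on GENCODE release 44 canonical transcripts. Regions with peak reads in at least 5 of 50 10plex libraries were tested, with a pseudocount of 10 PRPM. Depth ranged from 13351 to 3092853 peak reads in 10plex libraries, and low-depth libraries carry larger counting error.

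The main test permuted RBP labels within the 5 pools, all 100000 ways. The pairing comes from the design, since the 10 libraries of a replicate share 1 lysate. Lines were compared with limma 3.58.1 (R 4.3.3) on the same values. On simulated data, the permutation called 72 of 100 regions with 2 added on the log2 scale for IGF2BP2, 90 of 100 with 3 added and 29 of 33682 with none. Here RBP labels were first shuffled within each replicate, which removes a steady lead of another RBP, such as FAM120A on the IGF2BP1 3′ UTR. These counts need not hold for such regions. The simulated line contrast for IGF2BP2 called 191 of 200 regions with 4 added in K562 and 53 of 34082 with none. No library pair was identical. Python 3.11.15, numpy 2.4.6, scipy 1.17.1 and bedtools 2.31.1 were used.

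All 8 genes were described, and from each of 4 wider lists at most 5 called genes of largest difference per RBP were eligible for naming. The genes, lists and tests were chosen with earlier results of these data known. Alternatives covered the pseudocount, the filter, touching peaks, peaks enriched over the external background, placement, adapter-like sites, shallow RBPs, single replicates, each line, limma and the block, and, added after seeing the data, the 5-exon H19 transcript.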

Additional observations from a re-analysis of the deposited data

Results flagged for a closer look

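In 3 member regions with peaks in both lines, the difference of an RBP from the other 9 was itself different between the lines in the limma fit. For IGF2BP2 this was the HMGA1 5′ UTR (K562 minus HEK293T -3.58), and for LIN28B the H19 exons (4.25) and the stretch counted as H19 intron (3.83). The H19 regions adjoin at a splice junction and are not read as independent, and with a pseudocount of 1 neither H19 contrast passed. On the HMGA1 5′ UTR, IGF2BP2 held 0 PRPM in all 3 K562 replicates and in HEK293T replicate 2 and 83.1 in HEK293T replicate 1, while EIF3G held 658, 947 and 1254 PRPM in K562. Without HEK293T replicate 1 the value was -1.98 (limma adjusted p = 0.541).

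The same fit gave 5 further values that are no test of a difference between the lines, because HMGA2 and IGF2 had no peak in the 30 K562 10plex libraries and entered the test through HEK293T alone. They restate HEK293T levels with the sign turned. On the HMGA2 3′ UTR the value was -2.66 for IGF2BP2 and -3.29 for LIN28B. On the HMGA2 5′ UTR (1.32 for IGF2BP2), the HMGA2 intron (0.55 for LIN28B) and the IGF2 3′ UTR (0.89 for LIN28B), the RBP had no peak in either line and other RBPs had peaks in HEK293T only.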

How the results depend on the processing

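The HMGA1 3′ UTR call of IGF2BP2 and the H19 exon call of LIN28B held in 18 of 19 other settings each, and the H19 intron call in 17 of 18. The exception was HEK293T alone (adjusted p = 0.411 for HMGA1 and 0.336 for H19 in the exact permutation test), where the smallest p is 0.01. The IGF2R CDS call was lost in 4 of 19 and the MYC 3′ UTR call in 9 of 19. Of 18 member regions with a difference below 1, 9 changed sign in some setting and 2 values of 331 passed.

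Over all regions, IGF2BP2 was called higher in 2409 and LIN28B in 1821. These counts were 917 and 969 in K562 alone, 1302 and 1099 with exonic peaks summed per gene, 793 and 1210 for peaks enriched over the external background, and 1202 to 1832 and 1183 to 1559 without single replicates. In HEK293T alone the permutation test called 0 and 0, with 2794 and 1803 at an unadjusted p below 0.05. With the replicate block, limma called 6996 and 4195, and without the replicate block the permutation gave 2315 and 1687. limma with the block also called the 3′ UTRs of IGF2BP1 and HMGA2 for both RBPs, of IGF2BP3 for IGF2BP2 and of IGF2R for LIN28B, and the IGF2BP1 CDS for LIN28B. HMGA2 entered through HEK293T alone, and its K562 values, all 0 PRPM, add no spread to the fit. Nothing was therefore read from the HMGA2 calls.

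The line contrast passed in 2424 regions for IGF2BP2 and 1962 for LIN28B. Without single replicates it passed in 1881 to 6493 and 1322 to 6519, with 6103 and 6519 without HEK293T replicate 1 and 6493 and 6495 without HEK293T replicate 2, where the lone HEK293T pool is assumed to vary like the others. It passed in 3850 for IGF2BP2 with regions in at least 1 library, and in 265 and 566 with at least 15. With a pseudocount of 1, the H19 exon contrast of 1.32 (limma adjusted p = 0.264) and that of the H19 intron of 1.18 (limma adjusted p = 0.689) did not pass. The HMGA1 5′ UTR contrast was lost in 4 of 15 settings.

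Of 4030 member peaks, 1729 were enriched over the external background, and among these 53.6% of IGF2BP2 peaks in K562 and 61.6% and 56.9% of LIN28B peaks in K562 and HEK293T were shared by all replicates. In K562, this background held at most 1 recovered read at 98.2% to 98.7% of peaks in IGF2BP2 and LIN28B 10plex libraries. In HEK293T the share was 7.44% to 12.5%, so that being enriched does not mean the same in both lines. let-7 sites with an IGF2BP2 peak within 25 and 50 nt numbered 2 and 3 in K562 and 5 and 7 in HEK293T, and 0 and 0 of the 8-base sites were covered. For LIN28B in HEK293T they numbered 1 and 2. The depth of PUM2 limits comparisons with it most.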
